A study of Homo sapiens with 12 samples.

Results

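Transcripts of 10 amino acid transporters, chosen by gene symbol from the 58302 genes of the deposited table, were followed in 2 human glioma cell lines with and without artesunate. They were chosen with earlier results of these data known. The members are SLC7A11 and its partner SLC3A2, the other exchangers and importers SLC7A5, SLC7A1, SLC38A1, SLC38A2, SLC1A4 and SLC1A5, the glycine transporter SLC6A9 and the glutamate transporter SLC1A3. Polyadenylated RNA of the established lines U251 and U87 was sequenced in 12 libraries, 3 in each of 4 groups. U251 cells received 180 µM artesunate and U87 cells 24.08 µM for 24 h, and the control groups of both lines had culture medium alone (labelled 10%DMEM), with no solvent control stated. All groups are labelled day 9, and the study asked how this antimalarial compound, a derivative of artemisinin, acts on glioma lines in which its effect differs. Because each line had its own dose, line and dose cannot be told apart. The labels do not say whether the 3 libraries of a group came from separate cultures, so p-values measure only the spread between these samples, which may be technical. The extraction text names artemisinin where the labels name artesunate.

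Amino acid transporters supply cells with substrates that membranes do not let through. SLC7A11 (also called xCT) takes up cystine in exchange for glutamate, and the cysteine made from it is used for glutathione, which protects against lipid peroxidation and the form of cell death called ferroptosis. In glioma this exchanger is also known as a source of released glutamate. SLC7A11 and SLC7A5 are light chains, which carry out the transport, and each is held at the cell surface by the heavy chain SLC3A2 (CD98). Many genes of this family are known targets of ATF4, a transcription factor made when amino acids are short or proteins misfold, and SLC7A11 is also a target of NRF2, the factor of the oxidative stress response encoded by NFE2L2.

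The known binding elements of these factors were searched in the promoters of the members. RefSeq sequences of GRCh38.p14, from 250 bases before to 50 bases after each start site, held 17 windows for 9 of the 10 members, with SLC7A11 the member without an entry. The letters TGATGNAA, the ATF4 element known as CARE, were found on either strand in 6 of the 17 windows, which belong to 6 of the 9 members. The same letters stood in 3.62% of all 35116 promoter windows, and 4.46% of the 27305 genes with a window held them. The letters TGACNNNGC, the core of the antioxidant response element (ARE) bound by NRF2, were found in 5 of the 17 windows and in 13.3% of all windows. These belong to 5 of the 9 members, beside 16.1% of all genes with a window. The CARE matches are shown because they are the letters that several members share, with the match in capitals, 10 bases on either side where the window reaches that far, and the gene's strand read 5′ to 3′. Matches on the opposite strand show the reverse complement of the letters.
SLC1A4, chr2:64989382-64989409, plus strand, match on the opposite strand: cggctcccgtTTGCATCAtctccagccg
SLC3A2, chr11:62881726-62881748, plus strand, match on the opposite strand: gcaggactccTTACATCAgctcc
SLC1A3, chr5:36596358-36596385, plus strand, match on the same strand: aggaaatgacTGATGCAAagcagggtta
SLC1A5, chr19:46784894-46784921, minus strand, match on the same strand: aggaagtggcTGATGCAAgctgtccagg
SLC38A1, chr12:46266503-46266530, minus strand, match on the same strand: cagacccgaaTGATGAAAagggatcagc
SLC7A1, chr13:29595664-29595691, minus strand, match on the same strand: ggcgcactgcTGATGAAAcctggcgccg
The ARE letters were found in windows of SLC3A2, SLC7A1, SLC7A5, SLC1A5 and SLC1A3. The match of SLC7A5, a light chain that rose in both lines, and that of SLC3A2 are shown for comparison.
SLC7A5, chr16:87869491-87869519, minus strand, match on the same strand: gcggggttccTGACGCAGCtgcgggcggc
SLC3A2, chr11:62881652-62881680, plus strand, match on the same strand: cgagggtgggTGACTCAGCgtcctccttc
A match describes letters in a window and not a bound site. The CARE letters were found in SLC1A3, which fell in U87, and not in SLC7A5, SLC38A2 or SLC6A9, which rose in both lines. Whether either element took part in the changes was not tested.

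Library totals ran from 13631985 to 17314284 counts. Of the 58302 genes, 17150 passed the filter on low counts, and all 10 members were among them. Levels are given as counts per 1000000 counts (CPM) of a library size scaled with TMM factors, and effects as log2 fold changes ± standard error (SE) from edgeR's quasi-likelihood test, with p-values adjusted by the Benjamini-Hochberg method over the 17150 tested genes. A gene is called at an adjusted p under 0.05. The U87 artesunate libraries stood apart from one another: mitochondrial genes took 1.80% and 1.95% of counts in replicates 1 and 3, 3.42% in replicate 2 and 3.74% to 4.92% in the other 9 libraries. In the same libraries, the median log2 difference from the U87 controls over the 4272 tested genes with the highest GC content was -1.23, -0.68 and -1.12 in replicates 1, 2 and 3. The glial markers VIM and CD44 were at 3593 CPM or more and 485 CPM or more in all libraries, but AQP4 had no count in any library, and SOX2 and ALDH1L1 had none in U87, so that the astrocytic label rests on few of its defining markers there. Microglial and leukocyte markers summed to 73.1 to 115 CPM in U87 controls and 31.0 to 60.4 CPM with artesunate, from CD68 and CSF1R, 2 of the 5 listed, with AIF1 at 0. The endothelial list summed to 94.4 to 99.7 CPM in U251 controls and 59.2 to 67.8 CPM with artesunate, nearly all of it KDR. Over all libraries the neuron list summed to 32.0 to 53.7 CPM, the epithelial list to 2.40 to 37.1 CPM and the oligodendrocyte list to 0.336 to 0.932 CPM. The part of these transcripts in the results below was not tested.

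Artesunate raised 9 of the 10 transporters in U251 and lowered none, at a background of 8.34% of all tested genes called (4.09% higher and 4.26% lower). In U87 it raised 7 and lowered 1, at a much larger background of 58.3% called (29.2% higher and 29.2% lower). The median log2 fold change of the members was 0.91 in U251 and 1.86 in U87, against 0 over all tested genes in either line. Because the members were chosen with earlier results of these data known, these contrasts with all tested genes are a description only. The sum of the 10 transcripts in FPKM, a unit that also divides by transcript length, was 201 to 212 in U251 controls and 426 to 452 with artesunate. In U87 it was 161 to 166 in controls and 524 to 647 with artesunate. In bulk RNA, fewer cells with a transcript and less of it per cell cannot be told apart.

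**Figure D1:**
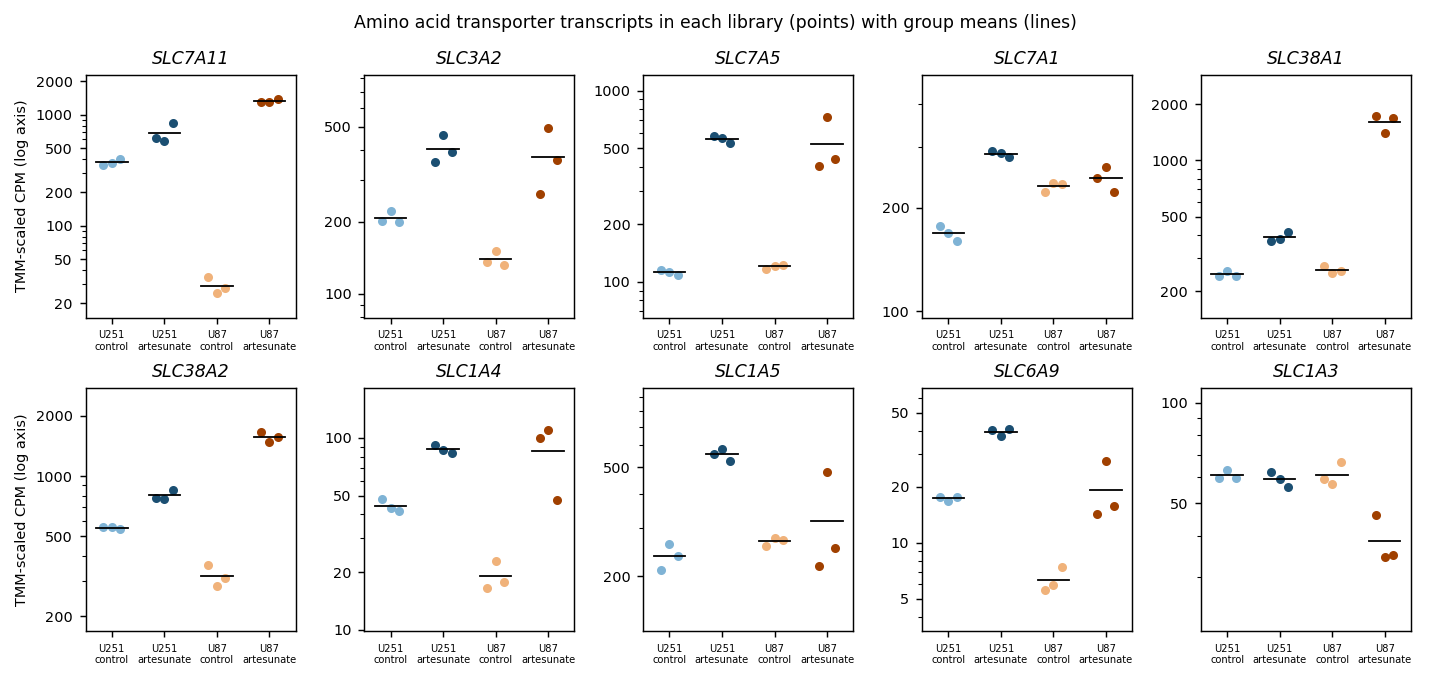
TMM-scaled CPM on a log axis of the 10 transporters in each of 12 libraries (points, 3 per group) with the group means (lines). SLC7A11 rises from 24.8 to 34.6 CPM in U87 controls to 1293 to 1385 CPM with artesunate. Replicate 2 of U87 artesunate (the middle point) is the highest of its group for SLC3A2, SLC7A5, SLC7A1, SLC1A4, SLC1A5 and SLC6A9.

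The cystine transporter SLC7A11 (ENSG00000151012, GRCh38 chromosome 4, 138164097 to 138242349) changed more in U87 than any other member did in either line. U87 controls held 34.6, 24.8 and 27.2 CPM of it and U87 artesunate libraries 1293, 1297 and 1385 CPM. In U251 the controls held 356, 368 and 398 CPM and the artesunate libraries 618.1, 579.9 and 841 CPM. All 4 groups were apart, with U87 controls lowest, then U251 controls, U251 artesunate and U87 artesunate. The log2 fold change was 5.52 ± 0.17 in U87, a 45.8-fold rise (edgeR adjusted p = 6.4e-09), the 12th largest rise of all tested genes. In U251 it was 0.86 ± 0.14, a 1.82-fold rise (edgeR adjusted p = 0.0039). The 2 effects differed by 4.66 ± 0.21 on the log2 scale (edgeR adjusted p = 2.9e-07). A comparison of the artesunate groups of both lines with each other was not fitted, but the lowest U87 library held more than the highest U251 library.

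Before treatment the lines differed in the opposite order. U251 controls held 12.9-fold more SLC7A11 transcript than U87 controls, a log2 difference of 3.69 ± 0.16 (edgeR adjusted p = 2.4e-09). On the FPKM scale, SLC7A11 made up 18.6% ± 1.1 (SD, n = 3) of the summed transcript of the 10 members in U251 controls and 1.83% ± 0.32 in U87 controls. With artesunate its share was 15.6% ± 2.9 in U251 and 23.2% ± 2.4 in U87. By group mean it was the 8th most abundant of the 10 in U87 controls and the most abundant in U87 artesunate, and the 3rd in both U251 groups. These shares and ranks are not corrected for GC content, which is 35.4% in the longest SLC7A11 transcript and 61.1% in that of SLC7A5. With the correction given below, the U87 rise was 25.2-fold for SLC7A11 and 8.29-fold for SLC7A5, so the U87 order may depend on it. In replicate 2 of U87 artesunate, SLC7A5 at 141 FPKM was above SLC7A11 at 132 FPKM.

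SLC3A2 (ENSG00000168003, chromosome 11, 62856102 to 62888875), the heavy chain that both SLC7A11 and SLC7A5 need at the cell surface, rose in both lines. U251 controls held 202, 223 and 200.4 CPM and U251 artesunate libraries 358, 459.96 and 391 CPM. U87 controls held 135, 151 and 133 CPM and U87 artesunate libraries 262, 496 and 362 CPM. Control and artesunate libraries did not overlap in either line, and the artesunate libraries of the lines overlapped each other. The rise was 0.95 ± 0.18 in U251 (edgeR adjusted p = 0.0094) and 1.42 ± 0.19 in U87 (edgeR adjusted p = 4.9e-05). The U251 call was lost at the edge of the threshold without control 3 (0.91, edgeR adjusted p = 0.0501; range over all alternatives 6.68e-05 to 0.0501).

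The light chain SLC7A5 (LAT1; ENSG00000103257, chromosome 16, 87830023 to 87869488) takes up leucine and other large neutral amino acids, and it had the largest rise of the members in U251. Its levels in U251 were 116, 113 and 108 CPM in controls and 576, 567 and 533 CPM with artesunate. In U87 they were 117, 121 and 123 CPM in controls and 406, 728 and 439 CPM with artesunate. Both artesunate groups lay wholly above their controls. Its log2 fold change was 2.31 ± 0.18 in U251 (edgeR adjusted p = 2.3e-05) and 2.12 ± 0.18 in U87 (edgeR adjusted p = 1.9e-06), rises of 4.97-fold and 4.35-fold.

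The summed light chains moved more than the heavy chain. Their sum (SLC7A5, SLC7A6, SLC7A7, SLC7A8, SLC7A10 and SLC7A11, all of which pair with SLC3A2) went from 62.8 ± 1.5 to 177 ± 12.4 FPKM in U251 and from 31.9 ± 1.92 to 236 ± 39.9 FPKM in U87 (SD, n = 3). SLC3A2 over that sum was 0.226, 0.245 and 0.214 in U251 controls and 0.138, 0.183 and 0.139 with artesunate. In U87 it was 0.293, 0.351 and 0.280 in controls and 0.0842, 0.121 and 0.106 with artesunate. The ratio was lower in all 3 artesunate libraries of each line than in all 3 controls of that line, although 3 against 3 libraries cannot give an exact two-sided permutation p under 0.1. The make-up of the light chains moved in opposite directions. SLC7A11 made up 59.2%, 60.4% and 63.5% of light-chain FPKM in U251 controls and 35.4%, 34.4% and 44.7% with artesunate. In U87 it made up 11.2%, 8.59% and 8.56% in controls and 61.9%, 47.2% and 60.6% with artesunate. SLC7A5 held most of the remainder: its mean share was 34.9% in U251 controls and 60.2% with artesunate, and 74.98% in U87 controls and 41.3% with artesunate. These are ratios of transcripts without a correction for GC content, and protein was not measured. With that correction the U87 rise was 25.2-fold for SLC7A11 and 8.29-fold for SLC7A5, so the U87 shares may depend on it.

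**Figure D2:**
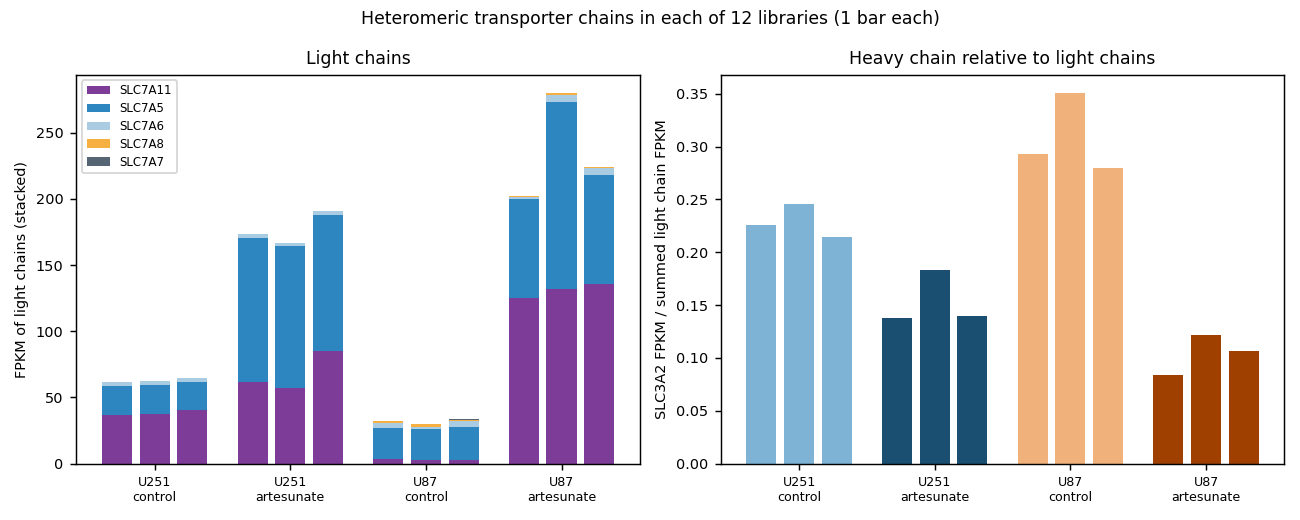
FPKM, not corrected for GC content, of the SLC3A2-dependent light chains stacked for each of 12 libraries (left, 1 bar per library) and the ratio of SLC3A2 to their sum (right). The SLC7A11 segment is at most 11.2% of the bar in U87 controls and at least 47.2% in U87 artesunate, and the ratio is lower in each artesunate library than in all controls of its line.

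SLC7A1 (CAT1; ENSG00000139514, chromosome 13, 29509410 to 29595688), the uptake system for arginine and lysine, rose in U251 and was not called in U87. U251 controls held 177, 169 and 159.9 CPM and U251 artesunate libraries 293, 289.8 and 281 CPM, with no overlap. U87 controls held 223, 236 and 234 CPM and U87 artesunate libraries 245, 263 and 223 CPM, which overlapped. This amounts to a log2 fold change of 0.77 ± 0.08 in U251 (edgeR adjusted p = 0.00012) and 0.08 ± 0.08 in U87 (edgeR adjusted p = 0.40, 95% interval -0.09 to 0.24). The difference between the lines was 0.70 ± 0.11 (edgeR adjusted p = 0.00025).

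Both sodium-coupled glutamine carriers, SLC38A1 (SNAT1; ENSG00000111371, chromosome 12, 46183063 to 46270017) and SLC38A2 (SNAT2; ENSG00000134294, chromosome 12, 46358189 to 46372867), lie near each other and rose in both lines, more in U87. SLC38A1 held 240.3, 255 and 242 CPM in U251 controls and 373, 381 and 415 CPM in U251 artesunate. In U87 it held 272, 249.6 and 256 CPM in controls and 1732, 1412 and 1686 CPM with artesunate. The controls of the lines overlapped, while the U87 artesunate libraries all lay above the U251 artesunate libraries. Its log2 fold change was 0.67 ± 0.09 in U251 (edgeR adjusted p = 0.00083) and 2.64 ± 0.09 in U87 (edgeR adjusted p = 7e-09).

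SLC38A2, which is known to be induced when cells lack amino acids, held 554, 559 and 546 CPM in U251 controls and 779.96, 766 and 858 CPM with artesunate. U87 controls held 358, 281 and 308 CPM and U87 artesunate libraries 1659, 1481 and 1563 CPM. No library of one group reached into another. On the log2 scale the rise was 0.54 ± 0.09 in U251 (edgeR adjusted p = 0.0039) and 2.31 ± 0.09 in U87 (edgeR adjusted p = 1.6e-08). The effects in the lines differed by 1.97 ± 0.12 for SLC38A1 (edgeR adjusted p = 1.1e-06) and 1.78 ± 0.13 for SLC38A2 (edgeR adjusted p = 2.5e-06), U87 the larger for both.

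SLC1A4 (ASCT1; ENSG00000115902, chromosome 2, 64988477 to 65023865), a neutral amino acid exchanger of alanine, serine and cysteine, rose in both lines. It held 48.2, 43.2 and 41.6 CPM in U251 controls and 91.4, 86.96 and 83.9 CPM with artesunate. In U87 it held 16.5, 22.8 and 17.7 CPM in controls and 100.5, 109 and 47.3 CPM with artesunate, replicate 3 being well under the others. The artesunate libraries lay above the controls in both lines. The log2 fold change was 0.98 ± 0.25 in U251 (edgeR adjusted p = 0.033) and 2.17 ± 0.26 in U87 (edgeR adjusted p = 2.2e-05). The U251 call was lost when any one of the 6 U251 libraries or U87 control 3 was left out (edgeR adjusted p 0.0504 to 0.122, lowest over all alternatives 0.000681), with values of 0.92 to 1.05.

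SLC1A5 (ASCT2; ENSG00000105281, chromosome 19, 46774883 to 46788594) is a main route of glutamine into proliferating cells and rose in U251. Its levels there were 210.1, 261 and 236 CPM in controls and 560.1, 584 and 528 CPM with artesunate. U87 controls held 257, 276 and 270.3 CPM, while the U87 artesunate libraries held 218, 481 and 253 CPM. Replicate 2 of U87 artesunate lay above all U87 controls and replicates 1 and 3 below all of them. The log2 fold change was 1.24 ± 0.23 in U251 (edgeR adjusted p = 0.0074) and 0.24 ± 0.23 in U87 (edgeR adjusted p = 0.38, 95% interval -0.25 to 0.74). Without replicate 2 the U87 value was -0.19, and with replicate 2 as the sole U87 artesunate library it was 0.84. Over all alternatives, tested with edgeR, DESeq2 or limma, the adjusted p in U87 ran from 2.55e-05 to 0.809.

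SLC6A9 (GLYT1; ENSG00000196517, chromosome 1, 43991500 to 44031467), which takes up glycine, a building block of glutathione, rose in both lines from a low level. U251 libraries held 17.6, 16.7 and 17.7 CPM in controls and 40.1, 37.6 and 40.7 CPM with artesunate. U87 libraries held 5.60, 5.91 and 7.38 CPM in controls and 14.3, 27.4 and 15.8 CPM with artesunate. The groups did not overlap within a line. On the log2 scale it rose by 1.19 ± 0.21 in U251 (edgeR adjusted p = 0.0052) and 1.604 ± 0.22 in U87 (edgeR adjusted p = 6.3e-05). Overlapping genes, CCDC24 among them, had 856 counts against its own 3775, so some of its reads may be theirs if the counting, whose use of strand is not stated, did not separate them.

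SLC1A3 (EAAT1, GLAST; ENSG00000079215, chromosome 5, 36606355 to 36688334), the carrier by which astrocytes clear glutamate, was the member that fell. Its U87 levels were 59.2, 57.1 and 66.6 CPM in controls and 46.0, 34.6 and 35.0 CPM with artesunate, without overlap. U251 libraries held 59.5, 62.8 and 59.5 CPM in controls and 61.9, 59.0 and 56.1 CPM with artesunate, which overlapped. It fell by 0.66 ± 0.11 on the log2 scale in U87 (edgeR adjusted p = 0.00038) and had a value of -0.04 ± 0.11 in U251 (edgeR adjusted p = 0.89, 95% interval -0.29 to 0.21). The difference between the lines was 0.62 ± 0.16 (edgeR adjusted p = 0.0069).

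**Figure D3:**
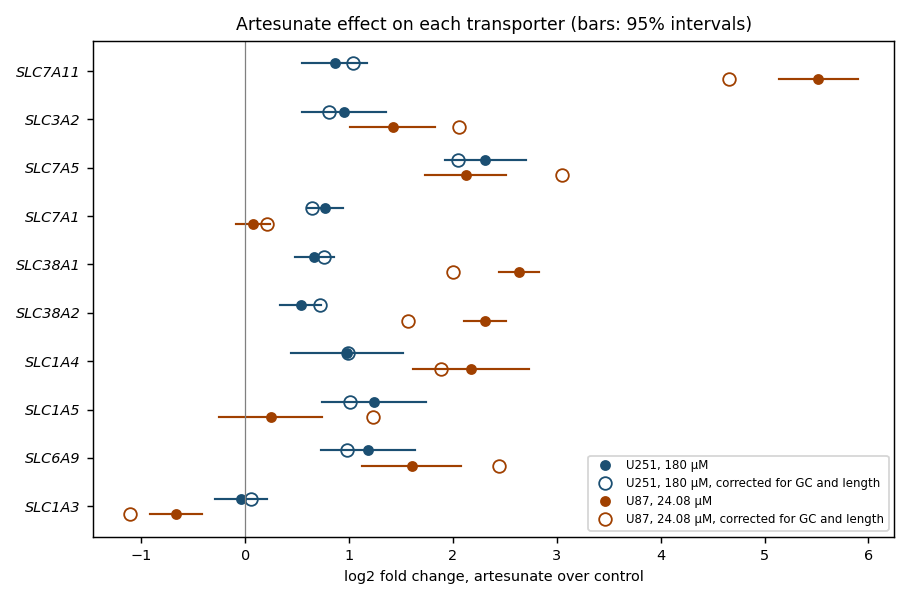
Log2 fold change of artesunate over control for the 10 transporters in U251 (blue, 180 µM) and U87 (brown, 24.08 µM), as filled points with 95% intervals, with open points for values corrected for GC content and length. SLC7A11 stands at 5.52 in U87 and 0.86 in U251, and the open U87 points lie to the right of the filled ones for SLC7A5, SLC3A2, SLC1A5 and SLC6A9.

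The next question was which artesunate effects differed between U251 at its dose and U87 at its dose. Of the 10 members, 7 differed, at a background of 49.4% of tested genes. Read with its sign, the log2 effect was lower in U251 for SLC7A11, SLC38A1, SLC38A2 and SLC1A4 (difference -1.20 ± 0.35, edgeR adjusted p = 0.013). It was higher in U251 for SLC7A1, SLC1A5 (1.00 ± 0.32, edgeR adjusted p = 0.022) and SLC1A3. For SLC1A3 this reflects a fall in U87 (-0.66) beside a value of -0.04 in U251 that was not called. The shares of all tested genes called with a higher and a lower signed log2 effect in U251 were 24.1% and 25.3%. No difference was called for SLC7A5 (0.19, 95% interval -0.34 to 0.72, edgeR adjusted p = 0.55), SLC3A2 (-0.47, -1.03 to 0.10, edgeR adjusted p = 0.16) or SLC6A9 (-0.42, -1.07 to 0.23, edgeR adjusted p = 0.27). Those intervals reach as far as -1.07 and 0.72, so the lines are not shown to act alike. The SLC1A5 call was lost without U251 control 1, U251 artesunate 2 or U87 artesunate 3, with values of 0.87 to 0.96.

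GC content moved with the U87 effects and splits the members. From the lowest to the highest of 4 equal classes of tested genes by GC content, the median log2 effect of artesunate in U87 was 0.67, 0.31, -0.16 and -1.05, and in U251 -0.17, -0.07, 0.04 and 0.22. SLC7A11 (35.4% GC in its longest transcript), SLC38A2 (38.1%), SLC38A1 (41.3%), SLC1A3 (43.8%) and SLC1A4 (46.5%) lie under the median of tested genes, 47.9%, and SLC7A1 (52.7%), SLC3A2 (57.4%), SLC6A9 (59.6%), SLC7A5 (61.1%) and SLC1A5 (61.3%) above it. The members above the median were all highest in replicate 2 among the U87 artesunate libraries, the library with the smallest fall of GC-rich genes. Of the members under the median, SLC1A4 was also highest there, at 109 CPM against 100.5 and 47.3 CPM in replicates 1 and 3. With the trend over GC content and transcript length removed from each library, SLC7A11 still rose in U87, 25.2-fold in place of 45.8-fold. The rises of SLC38A1 and SLC38A2 became 3.99-fold and 2.96-fold in place of 6.21-fold and 4.97-fold. Those of the GC-rich members grew: SLC7A5 rose 8.29-fold, SLC6A9 5.45-fold and SLC3A2 4.17-fold, and SLC1A5 rose 2.35-fold and was called. With that correction all 10 members were called in U87, 9 higher and 1 lower. Of all 17150 tested genes 7819 were then called there, 3384 higher and 4435 lower. SLC7A1 had a corrected log2 value of 0.21 and SLC1A3 of -1.11.

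The corrected differences between the lines changed in the same way. SLC7A11 differed by -3.61 and SLC38A1 and SLC38A2 by -1.24 and -0.84, all still called. SLC7A5, SLC3A2 and SLC6A9 had larger rises in U87 after correction (differences -0.997, -1.26 and -1.46, all called), and the calls for SLC1A5 (-0.22) and SLC1A4 (-0.89) were lost. U87 artesunate 2 was also kept as the sole library of its group, a choice made after seeing the data. The differences were then -0.28 for SLC7A5, -0.88 for SLC3A2, -0.93 for SLC6A9 and 0.40 for SLC1A5. That library had the smallest fall of GC-rich genes, so these values are not independent of the correction. Without U87 artesunate 2, SLC7A5 differed by 0.51 with the larger rise in U251. Whether the trend over GC content came from the cells or the libraries was not tested.

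**Figure D4:**
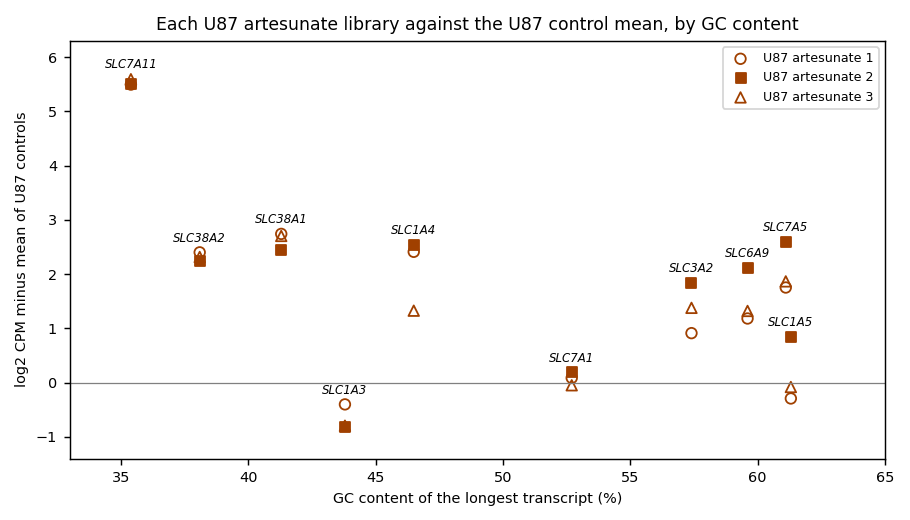
Log2 CPM of each U87 artesunate library minus the mean of the U87 controls (vertical) against the GC content of each transporter's longest transcript in percent (horizontal), with replicate 2 as filled squares. The replicates lie close together for SLC7A11 at 35.4% GC. Replicate 2 lies above replicates 1 and 3 for the 5 members over 50% GC and for SLC1A4 at 46.5%.

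Between the untreated lines, 6 members differed, at a background of 64.8% of tested genes (32.5% higher in U251, 32.3% lower). SLC7A11, SLC6A9 (log2 difference 1.46 ± 0.22), SLC1A4 (1.22 ± 0.25), SLC38A2 (0.81 ± 0.09) and SLC3A2 (0.58 ± 0.18) were higher in U251, and SLC7A1 (-0.45 ± 0.08) was lower. The edgeR adjusted p of these 6 ran from 2.4e-09 for SLC7A11 to 0.016 for SLC3A2. The SLC3A2 call was lost without U251 control 2, U87 control 1 or U87 control 3 (values 0.52 to 0.55). SLC7A5, SLC38A1, SLC1A5 and SLC1A3 were not called, at log2 differences of -0.10, -0.08, -0.18 and -0.01. With the GC correction, SLC7A11 was 7.69-fold and SLC38A2 1.15-fold higher in U251, in place of 12.9-fold and 1.75-fold. SLC38A1 (-0.57) and SLC1A3 (-0.32) were then also lower and SLC7A5 (0.19) higher in U251, and SLC1A5 had a value of 0.27 that was not called. In FPKM, SLC1A5 was the most abundant of the 10 in the controls of both lines, at 42.8 ± 4.67 (SD, n = 3) in U251 and 49.5 ± 1.54 in U87. In U251 controls, SLC38A2 at 39.7 ± 0.41 and SLC7A11 at 38.3 ± 2.31 FPKM followed, and the libraries of these 3 overlapped. In U251 artesunate, SLC7A5 at 106 ± 3.09 FPKM was first and SLC1A5 at 98.8 ± 3.82 second, with a narrow gap between their libraries. In U87 artesunate, SLC7A11 had the highest mean, 131 ± 5.37 FPKM, above SLC38A2 at 109 ± 3.59 and SLC38A1 at 108 ± 8.95, which overlapped each other. SLC7A5, at 74.8, 141 and 81.9 FPKM, was above SLC7A11 in replicate 2 of that group and below it in the others.

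The transcripts whose pattern over the 12 libraries was nearest to that of SLC7A11 were taken among 13577 protein-coding genes, by the root mean square difference of log2 CPM after centring each gene on its own mean. They were KLHL24 (0.70), EID3 (0.93), PELI2 (0.96), TXNRD1 (0.97), the thioredoxin reductase of the cytosol, and GDF15 (0.97), a secreted stress cytokine, against a median of 2.22 over all these genes. TXNRD1 went from a mean of 271 CPM in U87 controls to 2351 CPM in U87 artesunate, and from 1416 to 2520 CPM in U251. The U251 change of TXNRD1 was not called (0.83, edgeR adjusted p = 0.14), and that of GDF15 was (1.88, edgeR adjusted p = 2.7e-05). Those of KLHL24 (0.135), EID3 (0.482) and PELI2 (0.314) were not called either (edgeR adjusted p = 0.82, 0.49 and 0.098). EID3 was near the floor, at a mean of 0.155 CPM in U87 controls and at most 2.30 CPM in the other groups. KLHL24, the nearest, had a mean of 6.89 CPM in U87 controls, 104 CPM in U87 artesunate and 54.1 and 59.4 CPM in the U251 groups. The nearest member was SLC1A4 at 1.32 and the farthest SLC1A3 at 2.29. The likeness is a description over libraries that share their groups.

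Among genes known to act on SLC7A11, ATF4 and ATF3 rose in U251 and ATF4, ATF3 and NFE2L2 rose in U87. ATF4, the amino acid response factor, held 143, 132 and 129 CPM in U251 controls and 375, 370.1 and 369.8 CPM with artesunate. In U87 it held 160.2, 171 and 174 CPM in controls and 518, 564 and 557 CPM with artesunate. These are rises of 1.46 ± 0.07 (edgeR adjusted p = 5.5e-07) and 1.70 ± 0.07 on the log2 scale (edgeR adjusted p = 1.6e-08), and their difference was not called (-0.23 ± 0.10, edgeR adjusted p = 0.062). It was called by DESeq2, with the GC correction (-0.94) and without U87 artesunate 1. ATF3, a related factor that represses SLC7A11 in some settings, rose by 1.13 ± 0.22 in U251 and 0.81 ± 0.21 in U87. NFE2L2 held 20.3, 72.6 and 73.0 CPM in U87 controls and 115, 138 and 311 CPM with artesunate, a rise of 1.77 ± 0.44 (edgeR adjusted p = 0.0045), with U87 control 1 and U87 artesunate 3 far from the others of their groups. Its U251 value was 0.20 ± 0.43 and not called, and the difference between the lines was -1.57 ± 0.61 (edgeR adjusted p = 0.051), called in 6 of 21 alternatives. Without U87 artesunate 3 the U87 rise was 1.18 and the difference -0.97.

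BAP1, which is known to repress SLC7A11, had a log2 value of -0.37 ± 0.14 in U87 (a fall, edgeR adjusted p = 0.039) and 0.09 ± 0.14 in U251. The BAP1 fall became a rise of 0.53 with the GC correction and was lost without any one of 9 single libraries. KEAP1, which leads the NRF2 protein to degradation, was not called in any comparison of this fit. With the GC correction it was called higher in U87 with artesunate (0.72) and in U251 controls (0.58), and without U251 control 1 its effects differed between the lines (0.78). OTUB1 and CD44, which stabilise the SLC7A11 protein, were not called in either line with artesunate in this fit. CD44 had a value of 0.23 ± 0.07 in U251, called in 5 of 22 alternatives, and turned from 0.09 to a called -0.29 in U87 with the GC correction. OTUB1 had a value of -0.31 ± 0.17 in U87, turned to a called 0.75 with the GC correction and was called lower without U87 artesunate 1 (-0.52). OTUB1 and CD44 were 0.44 ± 0.17 and 0.98 ± 0.07 higher in U251 controls than in U87 controls, and the OTUB1 call was lost in 8 of 22 alternatives. ATF4 was lower in U251 controls than in U87 controls by 0.32 ± 0.07 without the GC correction and higher by 0.17 with it.

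For comparison, a list of 46 other amino acid transporters was read from the same fit. Of these, 12 had no count in any library and 23 were tested. In U251 none of the 23 was called by this edgeR fit, beside 8.34% of all tested genes, with 3 at an unadjusted p under 0.05. DESeq2 and limma called none either, with 1 and 2 at an unadjusted p under 0.05. A fit to the U251 groups alone called 2 other transporters, and the fit without U87 artesunate 2 called 1, all of them higher. The median log2 fold change of the 23 in U251 was 0, against 0.91 for the 10 members. That 0 is the value of SLC6A17, which had no count in any U251 library. SLC1A2, SLC6A15, SLC7A7, SLC7A8, SLC38A4 and SLC38A5 had few counts in U251 and could hardly be called there. The members and this list were chosen with earlier results of these data known, so the contrast between them is a description only. In U87, 8 of the 23 rose and 3 fell, beside 58.3% of all tested genes called there. The largest rises were those of SLC1A2 (2.64 ± 0.42), the main glutamate carrier of astrocytes, from 0.93 ± 0.24 to 5.85 ± 0.83 CPM (SD, n = 3), SLC7A7 (1.89 ± 0.28), a light chain for cationic amino acids, and SLC6A6 (1.86 ± 0.51), the taurine transporter. SLC6A6 held 241, 73.3 and 72.4 CPM in U87 controls and 481, 481 and 439 CPM with artesunate, so control 1 was far from the others. Without it the SLC6A6 rise was 2.68, and with U87 artesunate 2 as the sole library of its group the calls of SLC6A6 (1.90) and SLC38A4 (-1.34) were lost. The largest falls were those of SLC38A4 (-2.32 ± 0.57), SLC6A17 (-1.35 ± 0.28) and SLC38A10 (-1.05 ± 0.23), the last of which was 0.17 and not called with the GC correction.

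Between the lines, 7 of the 23 had differing artesunate effects, beside 49.4% of all tested genes. Read with their sign, 2 were higher in U251 and 5 higher in U87. SLC38A10 (1.49 ± 0.32) and SLC38A7 (0.55 ± 0.20) were higher in U251, and both values turned negative with the GC correction (-0.05 and -0.28). SLC38A10 fell in U87 (-1.05) and was not called in U251 (0.44), and SLC38A7 was not called in either line. SLC1A2 (-2.85 ± 1.09) and SLC7A7 (-1.85 ± 0.54) were higher in U87, where both rose. With U87 artesunate 2 alone the SLC7A7 value was -1.58. U251 libraries held 6 SLC1A2 counts in controls and 5 with artesunate, and the SLC1A2 call was lost without any one of 10 of the 12 libraries. In the untreated lines 15 of the 23 differed, 5 higher and 10 lower in U251, beside 64.8% of all tested genes. The cationic amino acid transporter SLC7A2 had 606 counts in U251 controls and none in U87 controls. It was at least 71.6-fold higher against a floor of 3 counts in each library. SLC6A17 had 1869 counts in U87 controls and none in U251 controls, at least 196-fold higher. SLC6A15, a neutral amino acid transporter, had 1948 counts in U87 controls and 8 in U251 controls, a ratio of 229 (95% exact binomial interval 116 to 532, for counting error only). SLC16A10, an aromatic amino acid transporter, was 2.22 ± 0.27 higher on the log2 scale in U251 controls.

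**Figure D5:**
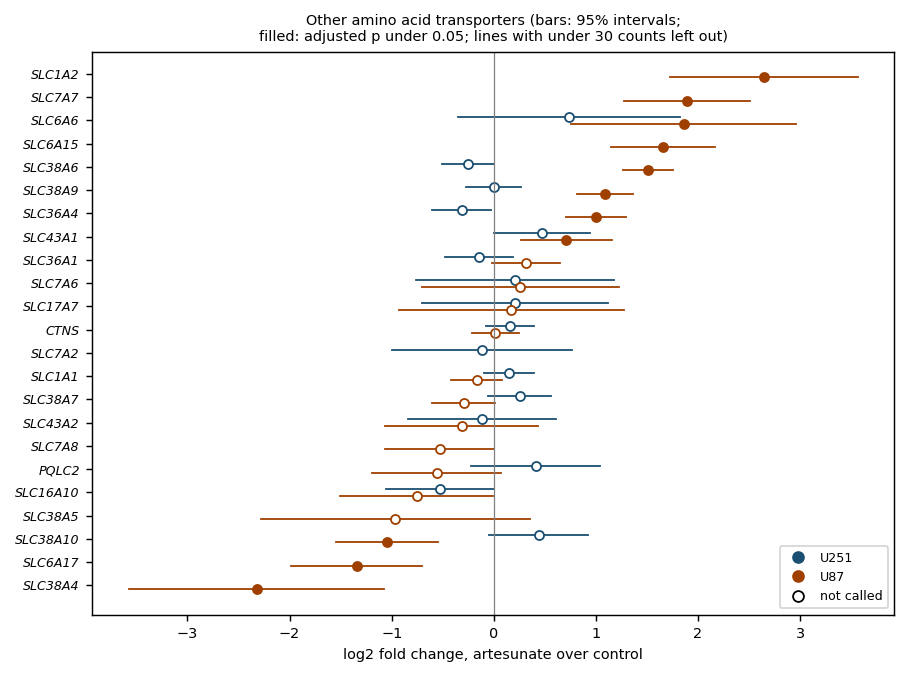
Log2 fold change of artesunate over control, with 95% intervals, for the 23 tested amino acid transporters outside the 10 members, in U251 (blue) and U87 (brown), filled where the adjusted p is under 0.05. Genes with few counts in a line have no point for that line. No U251 point is filled, and 8 U87 points to the right and 3 to the left of 0 are.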

How the data were processed

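Whole-number counts per gene for 12 libraries were deposited without normalization, per the file headers. FPKM values beside them were made by the authors after TMM scaling, per the series' design text and the file headers. Reads were cleaned with fastp, aligned with HISAT2 2.1.0 to GRCh38 and quantified with StringTie 1.3.3b, and edgeR 3.30.3 was used by the authors, per the submitters' processing notes. The step that made the counts and its use of strand are not given in the sources used here.

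Counts were tested in R 4.3.3 with edgeR 4.0.16: filterByExpr (minimum count 10, minimum total 15), TMM factors, a quasi-likelihood fit of 4 group means to 12 libraries, Benjamini-Hochberg adjustment over 17150 genes and a threshold of 0.05. Each SE was taken from the size of the fold change and the F statistic, and 95% intervals use the fit's degrees of freedom. Groups came from the sample labels. Library totals of 13631985 to 17314284 put 3 counts at 0.168 to 0.219 CPM. GC content and length came from the longest GENCODE transcript, for 99.64% of tested genes. The fit was also run on simulated counts, which had no line difference and no GC trend and so do not cover those features.

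The members are the 10 transporters given in every comparison. The other transporters named are the 3 largest called rises and falls in each line, and 2 per direction in the other comparisons, among those with a mean of at least 1 CPM in the higher group. The regulators are named, except 1 that is not reported here, and the 5 transcripts nearest to SLC7A11. The members and lists were chosen with earlier results of these data known. Alternatives were DESeq2 1.42.0 and its size factors, library totals, no filter, the compared groups alone, a replicate block, limma 3.58.1 on log2(FPKM + 1) and log2(FPKM + 0.1), GC and length correction, and leaving out libraries.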

Additional observations from a re-analysis of the deposited data

Results flagged for a closer look

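The artesunate effects of 7 members differed between the lines by the test of the difference itself (U251 minus U87, log2 scale, edgeR). SLC7A11 differed by -4.66, SLC38A1 by -1.97, SLC38A2 by -1.78 and SLC1A4 by -1.20, and SLC1A5 by 1.00, SLC7A1 by 0.70 and SLC1A3 by 0.62. Line and dose cannot be told apart, as each line had its own dose. Of these, SLC7A11, SLC38A1, SLC38A2, SLC7A1 and SLC1A3 stayed called in every alternative run, and SLC1A4 and SLC1A5 did not.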

How the results depend on the processing

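Of 870 member values recomputed under the alternatives, 832 kept direction and side of the threshold, 17 lost their call, 11 gained one and 10 changed sign. Leaving out single libraries gave 652 (without U251 artesunate 1) to 2582 (without U87 artesunate 2) calls over all genes in U251, 9029 to 10468 in U87, 7739 to 9314 for the difference and 10315 to 11969 between controls. Members called were then 7 to 9, 8 to 8, 6 to 8 and 5 to 6, and other transporters 0 to 1, 11 to 13, 5 to 7 and 14 to 16. Against 1431 calls over all genes in U251, DESeq2 gave 2328, no filter 864, the compared groups alone 2892 and limma on log2(FPKM + 1) 2154. With library totals the U251 calls split into 617 higher and 976 lower, against 701 and 730. The compared groups alone called 2 other transporters in U251, and they give no value for the difference. For the difference, GC correction gave 5098 calls in place of 8478 (59.0% higher in U251 against 48.7%) and moved the median by 0.11, and limma called 13 and 11 other transporters in place of 7 with pseudocounts of 1 and 0.1. An alternative chosen after seeing the data kept U87 artesunate 2 as the sole library of its group, assumed to vary like the other groups: it gave 2630 calls over all genes and 2 other transporters in U251, and 4 other transporters for the difference. The causes were not tested.

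Sign changes with the GC correction were SLC1A3 0.059 and BAP1 -0.14 in U251, SLC38A10 0.17, KEAP1 0.72, BAP1 0.53, CD44 -0.29 and OTUB1 0.75 in U87, SLC7A5 -0.997, SLC1A5 -0.22, SLC38A10 -0.047, SLC38A7 -0.28, KEAP1 -0.59, BAP1 -0.67 and OTUB1 -1.15 for the difference, and SLC7A5 0.19, SLC1A5 0.27 and ATF4 0.17 between controls. With U87 artesunate 2 alone, KEAP1 in U87 was 0.086 and the SLC7A5 difference -0.28. Without single libraries, SLC1A5 in U87 ran from -0.19 to 0.46 (lowest without U87 artesunate 2) and the OTUB1 difference from -0.012 to 0.34. Between controls, SLC1A3 ran from -0.06 to 0.037 and KEAP1 from -0.065 to 0.29. For the difference, SLC6A9 was 0.007 with limma on log2(FPKM + 1).

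Whether equal replicate numbers pair the samples is not stated in the labels. Correlations of deviations from group means ran from -0.009 to 0.053 for equal numbers and from -0.085 to 0.044 for unequal ones. With 3 libraries per group these values cannot settle the question. The replicate block changed no member's call and gave 9, 8, 7 and 6 members called in U251, in U87, for the difference and between controls, with 1169, 9724, 8317 and 10973 over all genes. Of 86 values of listed genes it ended 3 calls and added 3, none of a member. Counting error limits SLC1A2, SLC7A7 and SLC38A4.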
